A study of Drosophila melanogaster with 6 samples.

Results

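The tubulin isotypes of *Drosophila* were followed in *Raf926* and WT embryos as a set of 10 genes, out of 17714 in the deposited tables. They were taken by gene name, as the alpha, beta and gamma tubulin genes known for different times and places of expression. No measured value served as a criterion, but earlier results of these data were known when the genes were chosen. *alphaTub67C* and *gammaTub37C* were treated as maternal, *alphaTub84B*, *alphaTub84D*, *betaTub56D* and *gammaTub23C* as ubiquitous, *alphaTub85E* as neural and *betaTub60D* as mesodermal. *betaTub97EF*, of the gut and other organs, and *betaTub85D*, of the testis, were kept apart from these classes. The assignment to classes is background knowledge of the genes and was not derived from these libraries.

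Microtubules are polymers of alpha and beta tubulin dimers, and their assembly is started by gamma tubulin within a ring complex. The *Drosophila* egg is supplied by the mother with tubulin mRNA and protein for the rapid cleavage divisions. Maternal mRNAs are then cleared while the genome of the embryo is switched on, and isotypes restricted to certain tissues appear as those tissues differentiate.

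RNA was sequenced from 3 biological replicates of *Raf926* embryos and 3 of WT embryos. *Raf* encodes a kinase of the MAPK cascade. *Raf926* embryos, given as *Raf926*-/- in the labels, came from females whose germline was made mutant by FLP/FRT recombination against *OvoD2* on FRT19A X chromosomes. In the cross listed for such females the males carried FM6, so that daughters could receive an intact paternal *Raf*. WT embryos were of the Oregon R strain. The methods also describe a matαTub-Gal4VP16 driver, built on a maternal alpha tubulin promoter, for other crosses, and which cross gave the sequenced RNA was not settled here. Each library pooled whole embryos of mixed stages. The sample records give 24 h of laying at 25 °C for all samples and the methods give 0 to 12 h at 18 °C, a conflict that was not resolved. Genotype and the mix of stages therefore cannot be told apart. In whole embryos, fewer cells of a type and less RNA per cell cannot be told apart either.

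The libraries held 33275401, 37426014 and 37294231 expected counts in *Raf926* and 34774771, 35441376 and 38120428 in WT. *Raf* itself, at 1202, 1399 and 1546 normalized counts in *Raf926* and 2539, 2935 and 2184 in WT, was lower in every *Raf926* library (log2 fold change −0.88, edgeR adjusted p = 0.0016). Normalized counts are expected counts scaled by edgeR's TMM factors to the mean library size. Maternal RNA markers summed to between 383 and 489 TPM, the abundance scaled by transcript length that RSEM gives, in *Raf926* and between 134 and 208 TPM in WT. WT replicate 3 stood apart, with the lowest maternal sum and the highest sums of neuron and muscle markers. Several of the values that it moved are given with and without it. Genes were called changed where the fold change was above 1.5 and the adjusted p below 0.1. Over the 11568 genes tested, 22.7% were called higher in *Raf926*, 26.9% lower and 49.7% either way.

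Of the 10 tubulin genes, 7 were called, 2 higher and 5 lower in *Raf926*. The maternal isotypes were the 2 that rose. The neural and the mesodermal isotype, *betaTub97EF*, *alphaTub84D* and *gammaTub23C* fell. The abundant ubiquitous isotypes *alphaTub84B* and *betaTub56D* were not called, nor was *betaTub85D*. The median log2 fold change of the 10 tubulin genes was −0.59, beside −0.04 over all genes tested. *Raf926* and WT values did not overlap for 8 of the 10, where 68.5% of all genes tested had no overlap. All 10 passed the filter on low counts, and the expected counts were whole numbers in every library. None overlapped another annotated gene.

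**Figure D1:**
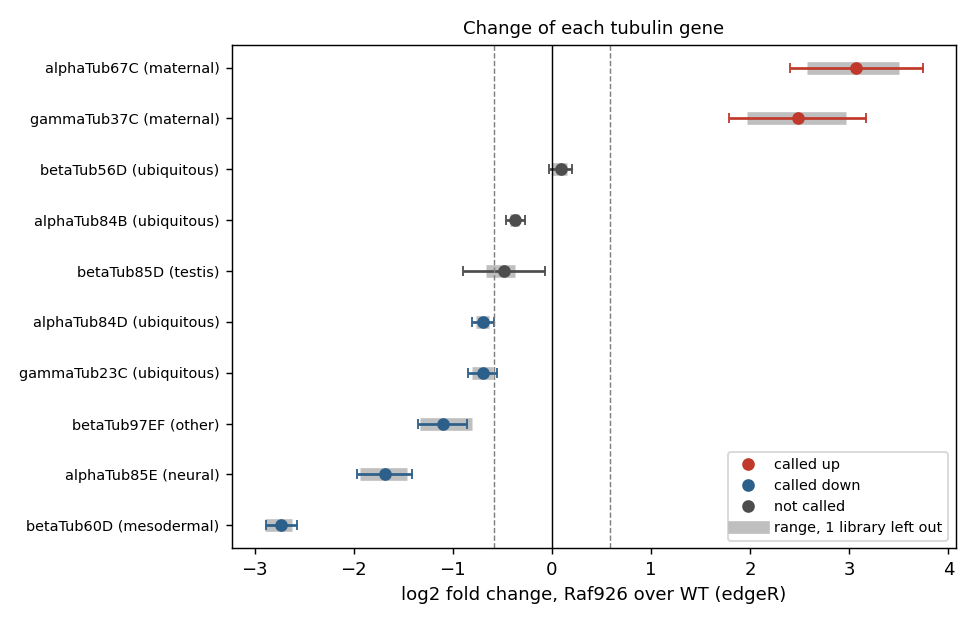
Log2 fold change of each tubulin gene, *Raf926* over WT, from edgeR. Points are fitted values, thin bars 1 standard error, grey bars the range with 1 library left out in turn, and dashed lines the fold change threshold of 1.5. The maternal genes *alphaTub67C* and *gammaTub37C* lie at 3.07 and 2.48, and *betaTub60D* lies at −2.73.

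*alphaTub67C* (FBgn0087040, chromosome arm 3L of BDGP6.54, 9681268 to 9683370, plus strand) encodes a divergent alpha tubulin made in the female germline and needed for meiosis and the first nuclear divisions. Its normalized counts were 2669, 3789.5 and 4860.4 in the *Raf926* replicates, against 579, 695 and 78.3 in the WT replicates. Every *Raf926* library was above every WT library, and WT replicate 3 was far below the other WT libraries. The log2 fold change was 3.07 (standard error 0.67, edgeR adjusted p = 0.0056), or 8.39-fold on the fitted scale. Without WT replicate 3 it was 2.58.

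*gammaTub37C* (FBgn0010097, 2L, 19183863 to 19185726, minus strand) is the gamma tubulin of the egg and early embryo, which serves the meiotic and cleavage spindles. It had 607, 796 and 903 normalized counts in *Raf926*, against 175, 220.1 and 20.0 in WT. The genotypes again did not overlap, and WT replicate 3 was the lowest of the 6 libraries for this gene as well. The log2 fold change was 2.48 (standard error 0.69, edgeR adjusted p = 0.016), and 1.97 without WT replicate 3. Among the 11568 genes ordered from the lowest to the highest log2 fold change, *alphaTub67C* held place 11326 and *gammaTub37C* place 11160.

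The maternal RNA markers moved in the same libraries. These were *bcd*, *osk*, *gnu*, *plu*, *png*, *pum* and *swa*, transcripts laid down in the oocyte. All 7 of 7 were called higher in *Raf926*, with a median log2 fold change of 1.97, or 1.58 without WT replicate 3. *plu* (2.28) and *gnu* (2.18) had the largest changes of the list. Their summed TPM was 383, 489 and 474 in *Raf926*, against 208, 192 and 134 in WT. Their part in the levels of the maternal tubulin genes was not tested.

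**Figure D2:**
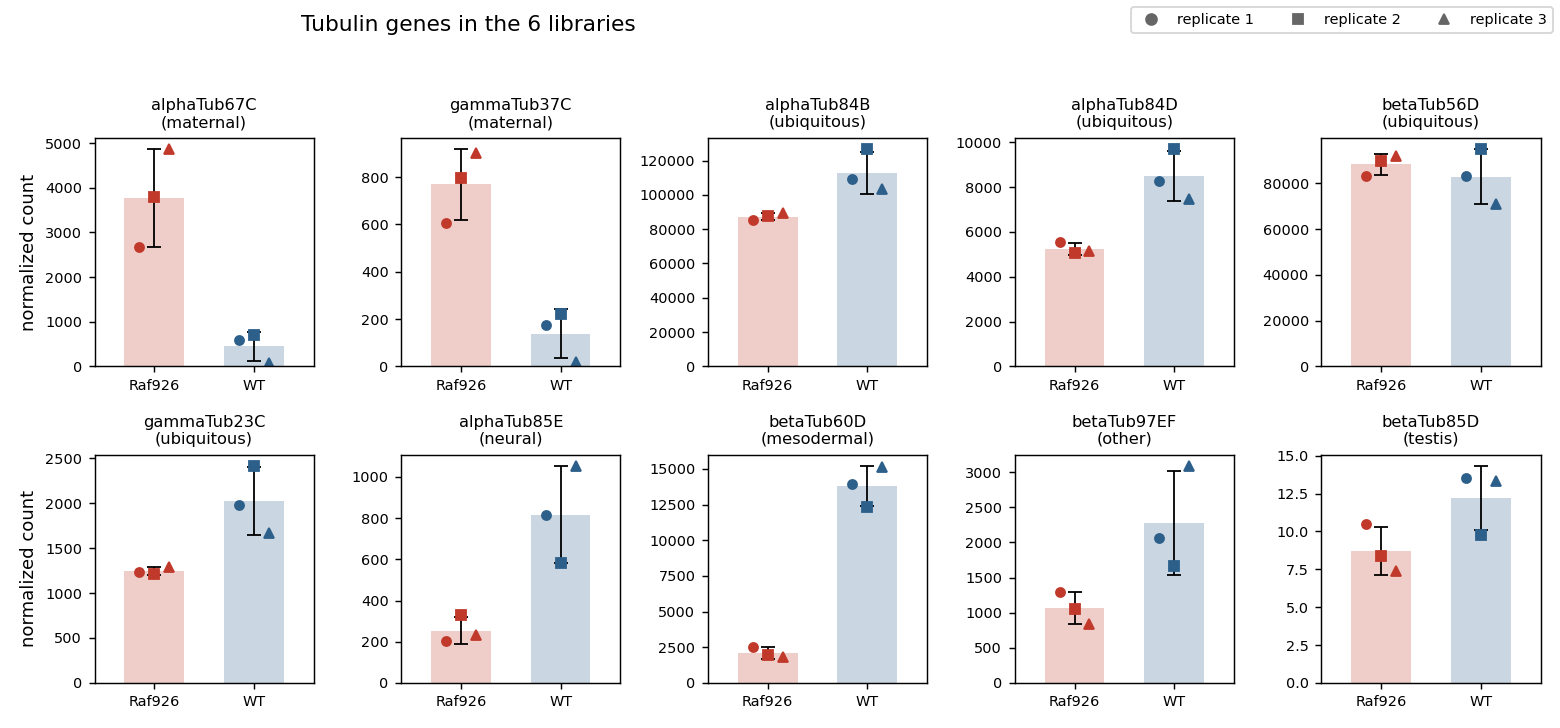
Normalized counts of the 10 tubulin genes in each library, on a linear axis from 0 in each panel. Symbols are replicates, bars group means and error bars the SD (n = 3). *Raf926* libraries lie above all WT libraries for *alphaTub67C* and *gammaTub37C* and below all WT libraries for *betaTub60D*, *alphaTub85E*, *betaTub97EF*, *alphaTub84D*, *alphaTub84B* and *gammaTub23C*.

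*alphaTub84B* (FBgn0003884, 3R, 7086599 to 7088839, plus strand) encodes the major alpha tubulin of most cells. It had 85571, 87482 and 89182 normalized counts in *Raf926*, against 109130, 126760 and 103250 in WT. All *Raf926* libraries were below all WT libraries, and the *Raf926* mean was 77.3% of the WT mean. The difference passed the test but not the fold threshold, so the gene was not called (log2 fold change −0.37, standard error 0.09, edgeR adjusted p = 0.011).

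*alphaTub84D* (FBgn0003885, 3R, 7530753 to 7532732, plus strand) encodes a nearly identical protein. Its normalized counts were 5544.7, 5051 and 5137 in *Raf926*, against 8297, 9703 and 7492 in WT. Values in *Raf926* were lower in every library, at 61.7% of the WT mean. This fall amounted to −0.70 on the log2 scale (standard error 0.11, edgeR adjusted p = 0.0015). RSEM can divide reads that match several genes. The expected counts of *alphaTub84B* and *alphaTub84D* were whole numbers in every library, so no fractional division was visible. How many reads matched both genes is not known. With the counts of the pair added up as 1 gene, the sum was not called (log2 fold change −0.39) and the number of called tubulin genes was 6. Most counts of the pair were those of *alphaTub84B*, so the sum followed that gene. It cannot show how reads were divided or test the call of *alphaTub84D*.

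*betaTub56D* (FBgn0284243, 2R, 19447319 to 19451600, minus strand), the beta tubulin found in most cells and also supplied by the mother, had 83330, 89995 and 91861 normalized counts in *Raf926*, against 83261, 94907 and 70815 in WT. The ranges overlapped. At 0.09, the log2 fold change was smaller than its standard error of 0.12 (edgeR adjusted p = 0.52). Its sign was not stable, at −0.10 with library size alone, −0.06 with upper-quartile scaling and −0.0019 without WT replicate 3.

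*gammaTub23C* (FBgn0260639, 2L, 2972891 to 2974858, plus strand), the gamma tubulin of somatic centrosomes, had 1237, 1209 and 1289.7 normalized counts in *Raf926*, against 1978, 2419 and 1665 in WT. The *Raf926* libraries were close to each other and all below WT, with a log2 fold change of −0.70 in the fit (standard error 0.15, edgeR adjusted p = 0.0047). The gamma tubulin pair thus moved in opposite directions.

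*alphaTub85E* (FBgn0003886, 3R, 9731221 to 9733250, minus strand) encodes an alpha tubulin of support cells in the peripheral nervous system, chordotonal organs (internal stretch receptors) and muscle attachment cells. It had 201, 329 and 230.2 normalized counts in *Raf926*, against 815, 582 and 1055 in WT. The highest *Raf926* library was below the lowest WT library. Its level was 3.22-fold lower (log2 fold change −1.69, standard error 0.28, edgeR adjusted p = 0.0016). The log2 fold change was −1.46 without WT replicate 3.

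Markers of neurons, chordotonal organs and tendon cells were lower in sum, but those of chordotonal organs and tendon cells were mixed in direction. The neuron markers are those of nerve cells in general, not of the support cells. Of 6 neuron markers, 5 were called lower, led by *elav* (log2 fold change −2.75), an RNA-binding protein of all neurons, and *Syt1* (−2.01), the calcium sensor of synaptic vesicles. The list summed to between 20.3 and 25.2 TPM in *Raf926* and between 105 and 154 TPM in WT. Of 7 chordotonal organ markers, *ato* (−1.97) and *cato* (−2.22), transcription factors of sense organ precursors, fell, while *nompC* (2.25), a mechanosensory channel, rose and 4 were not called. Their sums were between 11.2 and 12.9 TPM in *Raf926* and between 22.1 and 29.4 TPM in WT. Of 5 tendon cell markers, *sr* (−2.43), the transcription factor of muscle attachment cells, *Lrt* (−1.34) and *how* (−0.59, not called without *Raf926* replicate 2, *Raf926* replicate 3 or WT replicate 3) fell, *slow* (1.21) rose, and the sums were between 124 and 145 TPM in *Raf926* and between 165 and 221 TPM in WT. The part of these cells in the *alphaTub85E* level was not tested.

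*betaTub60D* (FBgn0003888 in the files and FBgn0288686 in BDGP6.54, 2R, 24305881 to 24313099, plus strand) encodes the beta tubulin of the developing mesoderm and muscles. Its normalized counts were 2542, 1925 and 1790 in *Raf926*, against 13976, 12326 and 15149 in WT. All *Raf926* libraries were far below all WT libraries, at 15.1% of the WT mean. The log2 fold change was −2.73 (standard error 0.16, edgeR adjusted p = 2.75e-05), which placed *betaTub60D* 889th from the lowest of the 11568 genes. It ranged from −2.89 to −2.63 with each library left out in turn, the narrowest range relative to its size among the 7 called tubulin genes.

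Muscle markers fell as well. All 9 of 9 were called lower, with a median log2 fold change of −4.49, or −7.92 without *Raf926* replicate 2, and *Act57B* (−4.91), a muscle actin, and *wupA* (−4.83), troponin I, had the lowest values. Their summed TPM was 20.0, 335 and 9.77 in *Raf926*, against 3474, 2484 and 4930.02 in WT. *Raf926* replicate 2 thus held more muscle RNA than the other *Raf926* libraries, whereas its *betaTub60D* value lay between theirs. Without that library the log2 fold change of *betaTub60D* was −2.64. The part of muscle in the *betaTub60D* level was not tested.

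*betaTub97EF* (FBgn0003890, 3R, 27967008 to 27988384, minus strand), a beta tubulin of the gut and some other differentiated tissues, had 1295, 1047 and 844 normalized counts in *Raf926*, against 2065, 1669 and 3095 in WT. No *Raf926* library reached the WT range, and WT replicate 3 was the highest. It fell by 1.10 on the log2 scale (standard error 0.25, edgeR adjusted p = 0.0065), and by 0.81 without WT replicate 3.

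*betaTub85D* (FBgn0003889, 3R, 9408383 to 9410282, minus strand), the beta tubulin of sperm formation, had few reads, with 9, 8 and 7 expected counts in *Raf926* and 14, 10 and 16 in WT. The normalized counts were 10.5, 8.39 and 7.36 in *Raf926*, against 13.5, 9.74 and 13.3 in WT, and the ranges overlapped. With a log2 fold change of −0.48 and a standard error of 0.42 (edgeR adjusted p = 0.34), a difference was not detectable at this depth. Of 8 testis markers, *dj*, *Mst84Da* and *Mst98Ca* had 3 or fewer counts in every library, 2 of them 0 in all 6, and the list summed to between 0.53 and 2.15 TPM in *Raf926* and between 0.37 and 0.53 TPM in WT. The 2 that could be tested, *can* and *topi*, were called higher, with adjusted p-values of 0.065 and 0.079 from edgeR, but neither was called by the DESeq2 Wald test, with the replicate number as a block, with library size alone, or without *Raf926* replicate 2, WT replicate 1 or WT replicate 2.

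Levels of different genes were compared as TPM, which the authors scaled by transcript length. In *Raf926* the order ran from *betaTub56D* (1737 ± 81.7 TPM, SD, n = 3) and *alphaTub84B* (1539 ± 26.2 TPM) to *alphaTub84D* (80.1 ± 4.35 TPM) and *alphaTub67C* (72.8 ± 20.2 TPM). *betaTub60D* (24.3 ± 4.84 TPM), *gammaTub23C* (20.6 ± 0.29 TPM), *betaTub97EF* (19.4 ± 4.31 TPM) and *gammaTub37C* (15.6 ± 2.91 TPM) followed, ahead of *alphaTub85E* (5.13 ± 1.43 TPM) and *betaTub85D* (0.143 ± 0.025 TPM). The ranges of *alphaTub84D* and *alphaTub67C* overlapped, as did those of each neighbouring pair from *betaTub60D* to *gammaTub37C*.

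In WT, *alphaTub84B* (2400.45 ± 172 TPM) came before *betaTub56D* (1965 ± 197 TPM), and *betaTub60D* (195 ± 29.6 TPM) before *alphaTub84D* (156 ± 13.9 TPM). Then came *betaTub97EF* (50.8 ± 19.2 TPM), *gammaTub23C* (40.15 ± 5.76 TPM), *alphaTub85E* (20.2 ± 6.82 TPM), *alphaTub67C* (10.3 ± 7.34 TPM), *gammaTub37C* (3.40 ± 2.53 TPM) and *betaTub85D* (0.247 ± 0.049 TPM). Neighbours whose ranges overlapped were *betaTub60D* and *alphaTub84D*, *betaTub97EF* and *gammaTub23C*, *alphaTub85E* and *alphaTub67C*, and *alphaTub67C* and *gammaTub37C*. The maternal *alphaTub67C* was therefore 4th of 10 in *Raf926* and 8th in WT, and *betaTub60D* was 5th in *Raf926* and 3rd in WT.

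The composition of each tubulin class was expressed as the share of its summed TPM. The largest difference was in gamma tubulin. *gammaTub37C* made up 37.5%, 45.0% and 46.1% of gamma tubulin RNA in *Raf926*, against 10.03%, 10.3% and 1.48% in WT. The remainder was *gammaTub23C*, so the maternal isotype approached the level of the somatic one in *Raf926* but exceeded it in none of the libraries. Summed gamma tubulin was 36.2 ± 3.03 TPM in *Raf926* and 43.5 ± 8.05 TPM in WT, with overlapping ranges (SD, n = 3 each, exact two-sided permutation p = 0.3).

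In alpha tubulin, *alphaTub67C* took 3.14%, 4.32% and 5.38% in *Raf926*, against 0.54%, 0.56% and 0.078% in WT. The shares of *alphaTub84B* were 90.7 ± 0.81% in *Raf926* and 92.8 ± 0.21% in WT, those of *alphaTub84D* 4.73 ± 0.36% in *Raf926* and 6.04 ± 0.16% in WT, and those of *alphaTub85E* 0.302 ± 0.079% in *Raf926* and 0.791 ± 0.30% in WT (SD, n = 3 each). Even so, *alphaTub84B* remained the bulk of alpha tubulin RNA in every library.

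In beta tubulin, *betaTub60D* took 1.75%, 1.24% and 1.13% in *Raf926*, against 8.88%, 7.01% and 10.8% in WT. *betaTub97EF* took 1.09 ± 0.28% in *Raf926* and 2.34 ± 1.02% in WT (SD, n = 3 each). Correspondingly, *betaTub56D* filled 97.5 ± 0.61% of beta tubulin RNA in *Raf926* and 88.7 ± 2.92% in WT. For every gene except *betaTub85D* the shares of the genotypes did not overlap. This gave the smallest p that 3 samples against 3 allow (exact two-sided permutation p = 0.1), while that of *betaTub85D* was 0.2. By level, 68.5% of all genes tested had no overlap. Shares within a class add up to the whole, so a rise of one isotype lowers the others. They are not separate results, and the shares of the gamma tubulin pair mirror each other.

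**Figure D3:**
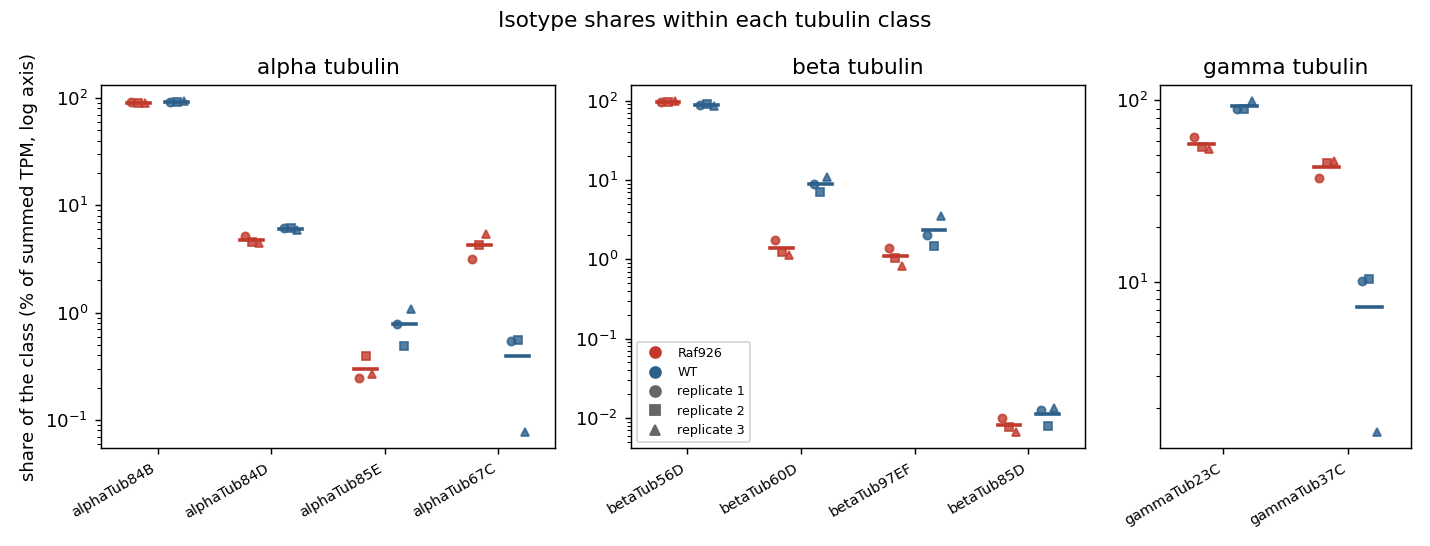
Share of each isotype in the summed TPM of its class, in percent on a log axis, in 3 *Raf926* and 3 WT libraries. Symbols are replicates and horizontal lines group means. *gammaTub37C* lies between 37.5% and 46.1% in *Raf926* and between 1.48% and 10.3% in WT, and *betaTub60D* between 1.13% and 1.75% in *Raf926* and between 7.01% and 10.8% in WT.

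Summed alpha tubulin was 1697 ± 37.9 TPM in *Raf926* and 2587 ± 184 TPM in WT, and summed beta tubulin 1781 ± 74.1 TPM in *Raf926* and 2211 ± 150.3 TPM in WT (SD, n = 3 each, exact two-sided permutation p = 0.1 for each). On the scale of normalized counts, an alternative chosen after the values were seen, summed alpha tubulin still did not overlap, but summed beta tubulin did, with 91551.5 ± 3864 in *Raf926* and 99100 ± 9922 in WT (SD, n = 3 each, exact two-sided permutation p = 0.3). The ratio of summed alpha to summed beta TPM was 0.974, 0.937 and 0.948 in *Raf926*, against 1.13, 1.18 and 1.20 in WT. By TPM it lay below 1 in every *Raf926* library and above 1 in every WT library. By normalized counts, which are not scaled by transcript length, alpha exceeded beta in every library of both genotypes. In *Raf926* these sums were 93986, 96652 and 99409 for alpha and 87177, 92975 and 94502 for beta. The crossing of 1 thus held for TPM only.

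Ratios between isotypes do not depend on how the libraries are scaled. For 8 pairs the log2 ratio of normalized counts was therefore taken in each library. *alphaTub67C* over *alphaTub84B* differed most, at −5.00, −4.53 and −4.20 in *Raf926* and −7.56, −7.51 and −10.35 in WT, a 14.9-fold higher ratio in *Raf926*, or 7.76-fold without WT replicate 3. *gammaTub37C* over *gammaTub23C* was 13.2-fold higher, or 6.78-fold without WT replicate 3, at −1.03, −0.60 and −0.51 in *Raf926* and −3.49, −3.46 and −6.34 in WT. Hence the maternal isotypes were raised relative to their ubiquitous counterparts in every *Raf926* library.

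The tissue isotypes differed in the other direction. *betaTub60D* over *betaTub56D* was 7.16-fold lower in *Raf926*, or 6.33-fold without WT replicate 3. Its log2 ratios were −5.03, −5.55 and −5.68 in *Raf926* and −2.57, −2.94 and −2.22 in WT. *alphaTub85E* over *alphaTub84B* was 2.48-fold lower, or 2.06-fold without WT replicate 3. *betaTub97EF* over *betaTub56D* was 2.26-fold lower, or 1.76-fold without WT replicate 3. Within the ubiquitous genes the shifts were smaller, as *alphaTub84D* over *alphaTub84B* was 1.25-fold lower and *betaTub56D* over *alphaTub84B* 1.38-fold higher. These 7 ratios did not overlap between genotypes (exact two-sided permutation p = 0.1, the smallest possible, and 0.114 after Benjamini-Hochberg adjustment over 8 pairs). By level, 68.5% of all genes tested had no overlap. Several pairs share *alphaTub84B* or *betaTub56D*, so the ratios are not separate results. *betaTub85D* over *betaTub56D* did overlap (exact two-sided permutation p = 0.2).

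Of the 10 genes, 6 have a single transcript in the tables and 4 have a pair. For the genes with a pair, the mean transcript length that RSEM gives per gene and library was turned into the share of the longer transcript. *gammaTub37C* has transcripts of 1628 and 1521 bases, FBtr0332572 and FBtr0081228, whose exon 4 ends at 19183863 in the longer and at 19183970 in the shorter on the minus strand of 2L. The 107 extra bases lie at the 3′ end, outside the coding region. The longer transcript was estimated at 37.2%, 17.3% and 38.1% of the gene in *Raf926*, and at 0 in all 3 WT libraries. WT held only 181, 226 and 24 expected counts of the gene, the reads over the 107 bases are not known, and the comparison reached the smallest exact two-sided permutation p of 0.1.

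*betaTub60D* has transcripts of 2518 and 2515 bases, FBtr0072270 and FBtr0343443, which differ by 3 coding bases at the start of exon 3 (24310893 or 24310896 on 2R). The longer was estimated at 65.0%, 64.7% and 68.3% in *Raf926*, against 77.0%, 78.3% and 82.0% in WT, without overlap (exact two-sided permutation p = 0.1). The lengths are given to 0.01 base, so that each step of the file is 0.333 percentage points. In *betaTub56D* the longer transcript, which starts at another first exon, was at most 0.143% in any library. The *betaTub97EF* transcripts, which differ in exon 4, have the same length and could not be separated in this way.

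**Figure D4:**
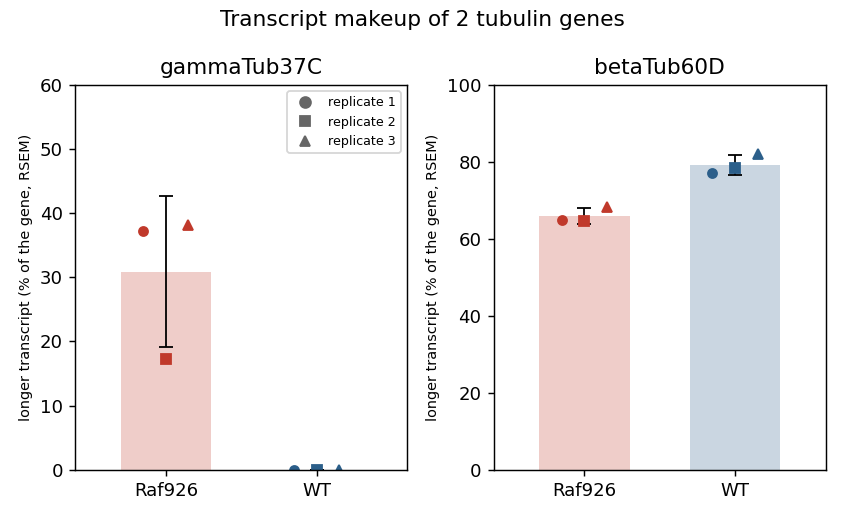
Share of the longer transcript of *gammaTub37C* and *betaTub60D*, in percent of the gene as estimated by RSEM, on linear axes from 0. Symbols are replicates, bars means and error bars the SD (n = 3). The longer *gammaTub37C* transcript is at 17.3% to 38.1% in *Raf926* and at 0 in WT, and the longer *betaTub60D* transcript at 64.7% to 68.3% in *Raf926* and 77.0% to 82.0% in WT.

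For each tubulin gene, the genes with the nearest profile were those with the smallest Euclidean distance of centred log2 CPM over the 6 libraries, among the 6043 genes that have a name other than a CG or CR number and a mean normalized count of 100 or more. For *alphaTub67C* they were *dhd* (distance 0.49), a thioredoxin of the egg, and *yl* (0.58), the yolk protein receptor of the oocyte. For *gammaTub37C* they were *yl* (0.29) and *fs(1)Ya* (0.53), a maternal protein of the nuclear envelope. For *betaTub60D* they were *kn* (0.24), a transcription factor, and *NtR* (0.25), and for *alphaTub85E* *7B2* (0.23), a chaperone of prohormone processing, and *PVRAP* (0.26). *betaTub97EF* lay nearest to *Sema2b* and *Syt4* and *betaTub85D* to *Nplp2* and *Cat*. The nearest genes of the 4 ubiquitous isotypes lay at distances of 0.057 to 0.086, for example *DCP2* and *Coprox* for *alphaTub84B*, *TH1* and *Plap* for *betaTub56D*, and *Pc* and *mute* for *gammaTub23C*. These distances describe 6 libraries of 2 genotypes and carry no test.

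Genes that assemble, modify or bind tubulin were taken from 6 lists, with the tubulin-like genes *CG7794* and *betaTub65B* as a further list. Of the 74 genes of the 6 lists, 67 were tested, and 14 were called higher and 7 lower in *Raf926*. With library size alone these numbers were 8 and 15, and with upper-quartile scaling 9 and 14, as the median over all genes shifted by −0.20 and −0.16 (log2) under these scalings. The direction of the related genes as a whole thus depended on the scaling, while the tubulin genes had 2 higher and 5 lower under each of the 3. The 21 calls among 67 genes stand beside 49.7% called over all genes tested.

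The gamma tubulin ring complex had a median log2 fold change of 0.48. *Grip163* (0.71, edgeR adjusted p = 0.0029) and *Grip128* (0.68, edgeR adjusted p = 0.032) were called among 6 subunits, but neither was with library size alone or upper-quartile scaling, and 1 was without *Raf926* replicate 3 or WT replicate 3. In tubulin folding, 3 of 14 rose. *Tbcb*, a cofactor that handles alpha tubulin, had 2807, 3444 and 3592 normalized counts in *Raf926*, against 1231.5, 873 and 869 in WT (log2 fold change 1.73, edgeR adjusted p = 0.00018). *Tbca*, which handles beta tubulin, had a log2 fold change of 1.07 and *Tbcc* of 0.66, the call of *Tbcc* being lost with library size alone, with upper-quartile scaling and without WT replicate 2. None of the 8 subunits of the TRiC chaperonin, which folds new tubulin, was called by edgeR or by the DESeq2 Wald test. In edgeR, *CCT6* (log2 fold change 0.31, adjusted p = 0.045) and *CCT4* (−0.26, adjusted p = 0.068) missed only the fold threshold, and 2 subunits had an unadjusted p under 0.05 by each tool.

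Of the 10 tested genes of tubulin modification, *TTLL5* (1.23) and *TTLL6B* (0.81), of the tubulin tyrosine ligase-like family, rose, and *TTLL4B* (−1.62), of the same family, and *Sirt2* (−0.79), a deacetylase, fell. Of 15 microtubule-associated proteins, 4 rose, including *stai* (1.23), the stathmin that binds free dimers, and *ens* (0.78), a cofactor of kinesin-1. The others that rose, *Map205* and *Map60*, were not called with library size alone or upper-quartile scaling. The call of *Map60* was also lost with no filter on low counts, without *Raf926* replicate 3 and without WT replicate 3. *tau* (−1.22), which binds axonal microtubules, fell. Of 13 tested spindle and transport motors, *cana* (1.22), a CENP-E-like kinesin, and *Khc* (0.75), the kinesin heavy chain, rose (*Khc* not with library size alone), and *Klp3A* (−0.77), a kinesin of the central spindle, fell. For the motors 5 were called with library size alone, 6 with upper-quartile scaling and 5 without WT replicate 3. Of 9 centrosome genes, *ana2* (1.19) rose, and *Sas-4* (−1.01), *Plp* (−0.94) and *Sas-6* (−0.66, not called without *Raf926* replicate 1 or WT replicate 2) fell, which build centrioles and the material around them. *CG7794* rose on few reads, at 27.9, 24.1 and 19.97 normalized counts in *Raf926* and 9.67, 10.7 and 5.83 in WT (log2 fold change 1.45, edgeR adjusted p = 0.017), and *betaTub65B* was below the filter.

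**Figure D5:**
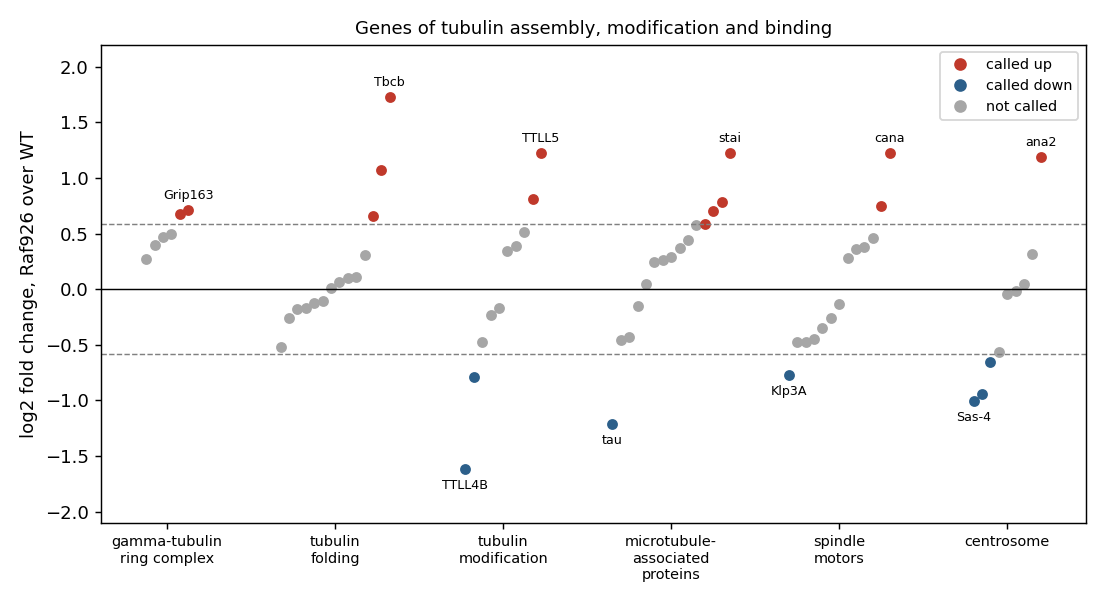
Log2 fold change, *Raf926* over WT, of each tested gene in 6 lists, ordered by value within a list. Red points were called higher, blue lower and grey not called, and dashed lines mark the fold change of 1.5. *Tbcb* at 1.73 is the highest point and *TTLL4B* at −1.62 the lowest.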

How the data were processed

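The authors aligned paired-end reads with STAR 2.7.1a to BDGP6.22 (Ensembl 97) and deposited 1 RSEM 1.3.1 gene table per library. The deposited tables give expected counts without normalization, TPM scaled by the authors to transcript length and library, and mean transcript lengths. Gene names, biotypes and coordinates came from BDGP6.54 (Ensembl 115). Of 17714 identifiers, 17587 matched by gene identifier and 76, *betaTub60D* among them, by transcript, and 51 did not.

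Expected counts were rounded. Genes of rRNA, snoRNA and snRNA (6.11% to 9.47% of counts) and genes with a mean under 10 counts were removed, as in the methods, which left 11568. Genotypes were compared over 6 samples by edgeR 4.0.16 (R 4.3.3) with TMM, the quasi-likelihood test and Benjamini-Hochberg adjustment, and genes called where the fold change exceeded 1.5 with an adjusted p below 0.1. The standard error is the log2 fold change divided by the square root of F. The DESeq2 1.42.0 Wald test of the methods was an alternative. Shares and ratios (pseudocount 0.5) used exact two-sided permutation tests, whose smallest p with 3 against 3 is 0.1. The fitting was tested on simulated data, in which far fewer genes changed than were called here. That test therefore does not cover the scaling of libraries with so many changed genes. Figures used matplotlib 3.10.9.

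The tubulin genes and the lists were chosen with earlier results of these data known. In the lists, symbols were updated to the annotation, and entries that matched no separate gene were dropped, after the tables were opened. Genes named are the tubulin genes, *Raf*, up to 2 called genes each way per list, and the 2 nearest profiles of each tubulin gene. *swa*, *osk*, *png*, *bcd*, *pum*, *how*, *Tbcc*, *CCT4*, *CCT6*, *Map205*, *Map60*, *Sas-6*, *dj*, *Mst84Da*, *Mst98Ca* and *betaTub65B* were named outside this rule, after their values were seen, to complete small counts or show a list.

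A floor of 3 counts corresponded to 0.0787 to 0.0902 CPM. Reads carried no molecular identifiers and the counting error understates the true one. No source says that replicates came from separate cages, so p-values cover the spread between these samples, which differed beyond counting noise (chi-square per degree of freedom 28.0 to 80.6 within genotypes and 353.8 or more between). Alternatives were other scalings, filters, thresholds, the DESeq2 test, the replicate block, libraries left out, rRNA kept, *alphaTub84B* and *alphaTub84D* added, TPM or a pseudocount of 5 for ratios, expected counts for shares and, added after the values were seen, sums of normalized counts for class totals.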

Additional observations from a re-analysis of the deposited data

Results flagged for a closer look

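The transcript makeup of *gammaTub37C* came from the length column of the tables, which no comparison of gene levels used. The longer transcript was estimated at 37.2% of the gene in *Raf926* replicate 1, 17.3% in replicate 2 and 38.1% in replicate 3, above the 0 listed in each of the 3 WT libraries. The WT estimates rest on 181, 226 and 24 expected counts of the gene.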

How the results depend on the processing

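The called tubulin genes numbered 7, 2 higher and 5 lower in *Raf926*, in every alternative except 2. With no fold threshold there were 8, since *alphaTub84B* was added. With *alphaTub84B* and *alphaTub84D* summed there were 6, since the pair then counted as 1 gene that was not called. Of 148 recomputed log2 fold changes of the tubulin genes, 145 kept their direction, and all kept their call or lack of one. Some lay close to the log2 threshold of 0.585. *gammaTub23C* was at −0.593 without WT replicate 2 and *alphaTub84D* at −0.631 without *Raf926* replicate 2. *alphaTub84B*, not called, was at −0.566 with library size alone. The sign turned for *betaTub56D* with library size alone (−0.10), with upper-quartile scaling (−0.064) and without WT replicate 3 (−0.0019, the lowest with a library left out, the highest being 0.15), whose cause was not tested. *betaTub85D* could not be tested without WT replicate 3, as it fell under the filter. The called related genes numbered 42 with no fold threshold, 26 higher and 16 lower, against 21 with it. All 75 recomputed log2 ratios kept their direction, and without WT replicate 3 the log2 differences of *alphaTub67C* over *alphaTub84B* and *gammaTub37C* over *gammaTub23C* were 2.96 and 2.76, against 3.90 and 3.72 with it. Shares moved beyond the replicate spread in 3 of 71 cases. With expected counts the difference in share was 13.0 percentage points for *betaTub56D* and −11.8 for *betaTub60D*. The remaining case was the combined share of *alphaTub84B* and *alphaTub84D*, a different quantity. It differed by −3.40 percentage points, against −2.09 for *alphaTub84B* alone. With sums of normalized counts, chosen after seeing the data, the log2 difference was −0.34 for alpha and −0.11 for beta tubulin, against −0.61 and −0.31 with TPM. The median of the muscle markers was −7.92 without *Raf926* replicate 2 and −6.43 with the replicate block. Over all genes, between 5402 and 7712 were called.

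Replicate numbers are shared by the genotypes, but same-numbered libraries did not deviate together (mean correlation −0.145 across genes, and none correlated best with its own number). With the replicate block, 5493 genes were called over all tested, 7 tubulin genes and 21 related genes, and the log2 fold changes of *alphaTub67C* and *gammaTub37C* were 3.35 and 2.84.

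The limits are 3 libraries per genotype, pooled mixed stages, and low counts of *betaTub85D* and of *gammaTub37C* in WT replicate 3.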
